A study of Capra hircus with 12 samples.

Results

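The subject is a set of 10 heat shock chaperones, the proteins that help other proteins fold, followed across the yearly cashmere cycle of the goat (Capra hircus). The members were chosen by symbol: HSPA8, HSP90AA1, HSP90AB1, HSPH1, DNAJB1 and HSPB1 of the cytosol, HSPA5 of the endoplasmic reticulum, and HSPD1, HSPE1 and HSPA9 of the mitochondrion. All 10 were found among the 20326 genes of the deposited files, and all 10 passed the filter on low values. The study sequenced RNA from secondary hair follicles, the follicles of goat skin that make cashmere. Libraries of May and September stand for anagen, when the fibre grows. Those of November and December stand for catagen, when the follicle regresses, and those of February and March for telogen, when it rests. Each stage was sampled in its own months, so stage and season cannot be told apart. A female and a male goat aged 1.5 years gave 1 library each per month, so there were 12 libraries from 6 months, 4 for every stage. Whether the same animals were sampled in more than 1 month, and their breed and treatment, are not given in the sources used here.

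Chaperones bind proteins that are newly made or unfolded and keep them from clumping. In the cytosol, HSPA8 is the constitutive member of the HSP70 family, DNAJB1 is a J-domain partner that hands it clients, and HSPH1 exchanges its nucleotide. HSP90AA1 and HSP90AB1 are the heat-inducible and the constitutive form of cytosolic HSP90, which finishes kinases and steroid receptors, and HSPB1 is a small heat shock protein that holds clients without using ATP and is abundant in differentiating keratinocytes. HSPA5, also called BiP, is the HSP70 of the endoplasmic reticulum and holds the sensors of the unfolded protein response inactive. HSPA9 pulls imported proteins into the mitochondrion, where the barrel formed by HSPD1, capped by its lid HSPE1, folds them. Hair follicle cells that make keratin carry a heavy load of protein synthesis in anagen, and much of the lower follicle is lost by apoptosis in catagen.

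The values are a measure of transcript level per transcript length and are headed TPM in the files, but their sums ran from 904623 to 1127797 per library, so they had been rescaled. Read depth is unknown. Follicle markers were present in all 12 libraries: the summed value of 4 inner root sheath genes ran from 16150 to 20750 in anagen, 12330 to 18670 in catagen and 3506 to 12120 in telogen. That of 3 hair shaft keratins ran from 753 to 922 in anagen, 664 to 1061 in catagen and 193 to 609 in telogen. Telogen libraries stood apart. Transcripts of the mitochondrial genome took 1.53% to 2.42% of the signal in anagen, 2.07% to 3.51% in catagen and 4.63% to 11.8% in telogen. Ribosomal protein transcripts took 17.6% to 22.3% in anagen, 20.6% to 24.8% in catagen and 12.5% to 17.6% in telogen. The March male library had the 4.63% and the 17.6%, so it lay nearest to the other stages. The changes of HSPA5, HSPD1, HSPB1 and DNAJB1 and the counts of the lists of folding genes are also given without it, but the marker counts are not. Both May libraries held skeletal muscle transcripts, with a summed value over 5 markers of 122.8 and 123.3, against 2.56 to 8.29 in the other 10 libraries.

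The 10 chaperones took 0.237% to 0.372% of the signal per library. In telogen 1 of them was higher than in catagen and 2 were lower, where 24.5% and 19% of all genes tested were. No member passed the test in catagen against anagen, where 0.0559% of all genes did. The order of the mean levels over all 12 libraries was HSPB1 (753 ± 387, SD, n = 12), HSPA8 (743 ± 177), HSP90AA1 (504 ± 62.6), HSP90AB1 (333 ± 43.3), HSPA5 (220.3 ± 58.2), HSPE1 (197 ± 31.9), DNAJB1 (125 ± 20.9), HSPA9 (91.3 ± 6.43), HSPD1 (62.8 ± 15.4) and HSPH1 (37.5 ± 8.98). Each gene exceeded the next in this order in all 12 libraries, with 3 exceptions. HSPB1 exceeded HSPA8 in 3 libraries, all of telogen, HSPA5 exceeded HSPE1 in 8, and DNAJB1 exceeded HSPA9 in 11. The most even member was HSPA9, whose highest library was 1.26 times its lowest, and the most variable was HSPB1, at 3.81 times.

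**Figure D1:**
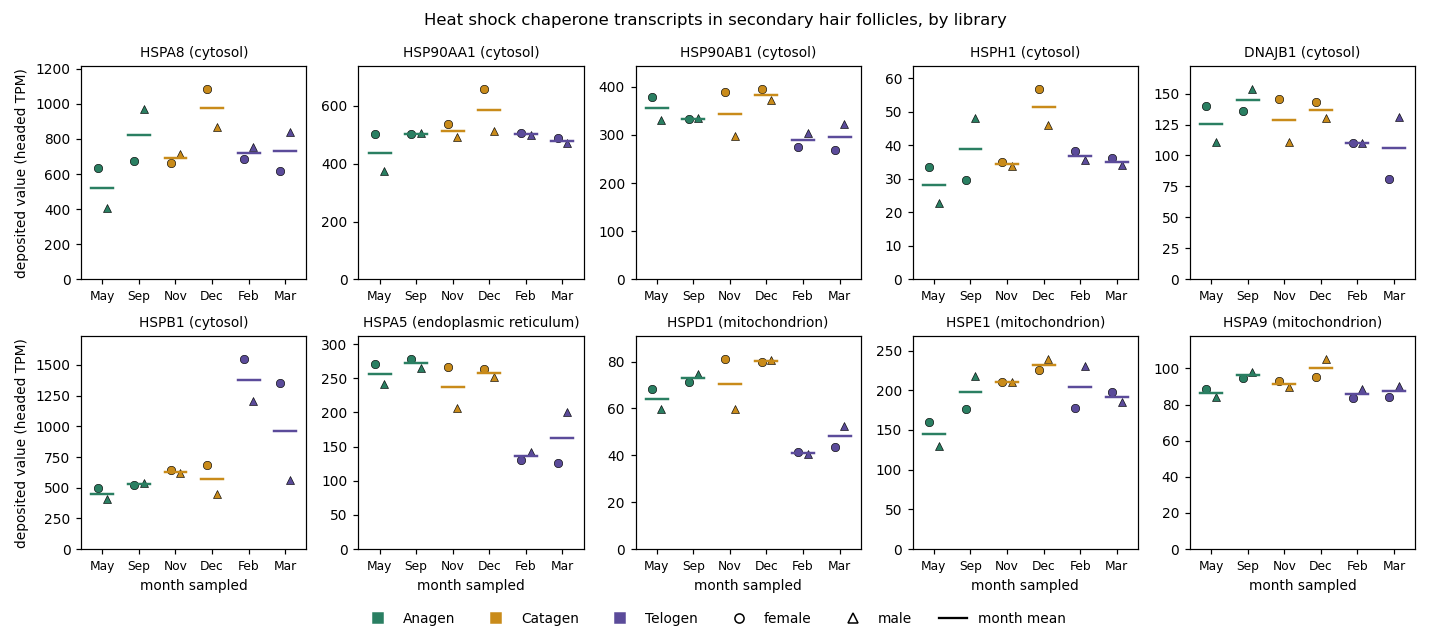
Deposited value (headed TPM, linear axes from 0) of each chaperone in the 12 libraries by month sampled, with circles for females, triangles for males and a bar for the month mean. HSPA5 and HSPD1 sit low in February and March, HSPB1 sits high there except in the March male (564), and HSPA8 and HSPH1 peak in the December female (1083 and 56.8).

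A gene passed where limma gave an adjusted p < 0.05 over all 16095 genes tested, and changes are on the scale of log2(value + 1). In telogen against catagen 43.6% of the genes tested passed, with 24.5% above and 19% below their catagen level, so the 3 of 10 chaperones that passed are not more than the rest of the genes gave. With every library scaled to an equal total, the split of all genes moved to 4373 higher and 2052 lower, compared with 3948 and 3063. Without that scaling the median change of all genes was 0.07, and that of the 6 cytosolic chaperones was -0.20. In anagen against telogen 52.9% of all genes passed, 23.7% higher and 29.2% lower in anagen, and among the chaperones 2 were higher and 1 was lower. These were the same 3 genes, HSPA5, HSPD1 and HSPB1, and both comparisons use the same telogen libraries. In a tissue sample, fewer cells of a type and less RNA per cell cannot be told apart.

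HSPA5, the chaperone of the endoplasmic reticulum, fell in telogen. Its values were 271, 242, 278 and 266 in anagen, in the order May female, May male, September female and September male. They were 267, 207, 263 and 252 in catagen, from November female to December male, and 129.9, 142, 126 and 200.2 in telogen, from February female to March male. Every telogen library lay below every library of the other stages, and the March male came closest. The change was -0.74 in telogen against catagen (SE 0.145, adjusted p = 0.00202, means 149.5 ± 34.5 and 247 ± 27.9, SD, n = 4) and 0.84 in anagen against telogen (SE 0.145, adjusted p = 5.91e-04, mean 264 ± 15.9 in anagen). Without the March male these changes were -0.89 (adjusted p = 1.80e-04) and 0.99 (adjusted p = 4.83e-05). The fits without the March male gave the lowest adjusted p of the alternatives. HSPA5 kept its call in 22 of 22 alternatives in each of these comparisons. Its changes ran from -0.89 to -0.58 against catagen (highest adjusted p = 0.0381). In anagen against telogen they ran from 0.72 to 0.99 (highest adjusted p = 0.0153). Of the chaperones, HSPA5 and HSPD1 had telogen groups wholly below catagen, an order that 15.9% of the genes tested showed. No chaperone had telogen wholly above catagen, as 19.9% did.

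The other folding genes of the endoplasmic reticulum went mostly the same way in telogen against catagen. Of 21 measured, 11 fell and 1 rose (median change -0.29). CALR, a lectin chaperone for glycoproteins, fell by 0.46, PPIB, a prolyl isomerase that acts on collagen, by 0.76, P4HB, a disulfide isomerase, by 0.56 and PDIA6, another, by 0.23. The 1 that rose was ERO1A, an oxidase that recharges disulfide isomerases, at 0.33. HSP90B1, the HSP90 of this compartment and a usual companion of HSPA5, had a change of 0.13 (adjusted p = 0.428). Without the March male 12 fell and 3 rose, and with equal library totals 7 fell and 2 rose. Among 16 sensors and targets of the unfolded protein response, 3 rose and 2 fell, with a median change of 0.02, and without the March male 3 rose and 3 fell. The sensor ATF6 rose by 0.51, DDIT3, a transcription factor induced under prolonged stress, rose by 0.73, CHAC1, a glutathione-degrading enzyme, fell by 1.41 and PPP1R15A, a phosphatase subunit that restores translation, fell by 0.47. The background shares were 24.5% for rises and 19% for falls.

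HSPD1, the subunit of the mitochondrial barrel, fell in telogen as well. Its values were 68.3, 59.9, 71.2 and 74.7 in anagen, 81.1, 59.95, 79.7 and 80.5 in catagen and 41.4, 40.7, 43.6 and 52.6 in telogen, with libraries in the order given for HSPA5. No telogen library reached the lowest of the other stages, the May male at 59.9, and the November male, at 59.95, stood below the other 3 catagen libraries. The change was -0.74 in telogen against catagen (SE 0.121, adjusted p = 8.75e-04, means 44.55 ± 5.48 and 75.3 ± 10.3, SD, n = 4) and 0.61 in anagen against telogen (SE 0.121, adjusted p = 0.00127, mean 68.5 ± 6.34 in anagen). Without the March male these changes were -0.82 (adjusted p = 3.25e-04) and 0.69 (adjusted p = 4.86e-04), the lowest adjusted p of the alternatives. HSPD1 passed in 22 of 22 alternatives of each comparison. Its changes ran from -0.85 to -0.63 against catagen (highest adjusted p = 0.0213). In anagen against telogen they ran from 0.50 to 0.72 (highest adjusted p = 0.0275).

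HSPE1, the lid of the same barrel, did not pass in either comparison. Its values were 161, 130.4, 177 and 218 in anagen, 209.8, 210.04, 225 and 239 in catagen and 178, 231, 198 and 185 in telogen, so telogen overlapped both other stages. The change was -0.16 in telogen against catagen (95% interval -0.48 to 0.15, adjusted p = 0.372) and -0.22 in anagen against telogen (95% interval -0.53 to 0.09, adjusted p = 0.208). Anagen against telogen passed with quantile normalization (-0.34, adjusted p = 0.0355) and without the September male (-0.35, adjusted p = 0.0421). HSPE1 had 2.18 to 2.92 times the value of HSPD1 in anagen, 2.59 to 3.504 times in catagen and 3.52 to 5.67 times in telogen. The difference between the changes of the 2 genes was not tested. In the RefSeq table of assembly ARS1.2 the HSPE1 and HSPD1 records overlap, so reads from the shared stretch could be given to either gene, and their strand is not given in the sources used here.

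HSPA9, the motor of mitochondrial import, varied least of the members. It had 83.99 to 98.2 in anagen, 89.9 to 105.2 in catagen and 83.5 to 90.4 in telogen. The change was -0.14 in telogen against catagen, with a 95% interval from -0.33 to 0.04 (adjusted p = 0.186). Other proteins keep the mitochondrial proteome in order. Of 15 measured, 10 fell and 1 rose in telogen against catagen, with a median change of -0.43, where 19% of all genes fell and 24.5% rose. PHB2 and PHB, which form a scaffold in the inner membrane, fell by 0.38 and 0.68. CLPP, a protease of the matrix, fell by 0.53, and AFG3L2, a protease of the inner membrane, by 0.43. CLPB, a disaggregase, rose by 0.51. With equal library totals 6 fell and 1 rose, and without the March male 9 fell and 1 rose. Over the same telogen libraries, 12 of 13 transcripts of the mitochondrial genome rose, with a median change of 1.84. Their part in these results was not tested.

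**Figure D2:**
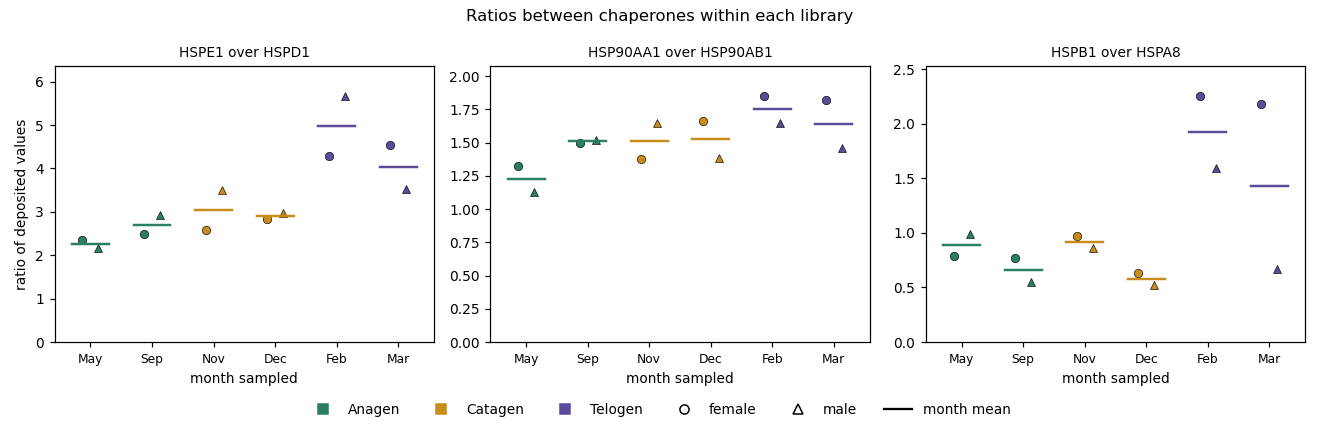
Ratio of deposited values within each library (linear axes from 0) by month sampled, for HSPE1 over HSPD1, HSP90AA1 over HSP90AB1 and HSPB1 over HSPA8. The first ratio is 3.52 to 5.67 in telogen, above the 2.18 to 3.504 of the other stages, and the third is above 1 only in 3 telogen libraries.

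HSPB1, the small heat shock protein, rose in telogen. Its values were 498, 407, 519 and 537 in anagen, 645, 619, 686 and 451 in catagen and 1549, 1205, 1353 and 564 in telogen. The February libraries and the March female were above every library of the other stages, and the March male lay within the catagen range. The change was 0.88 in telogen against catagen (SE 0.268, adjusted p = 0.0184, means 1168 ± 426 and 600.1 ± 103, SD, n = 4) and -1.16 in anagen against telogen (SE 0.268, adjusted p = 0.00312, mean 490.3 ± 57.7 in anagen). Without the March male these changes were 1.20 (adjusted p = 3.38e-04) and -1.48 (adjusted p = 5.56e-05). The call against catagen was lost without the December male (0.75, adjusted p = 0.0557), without the February female (0.71, adjusted p = 0.0591) and without both February libraries (0.56, adjusted p = 0.199), and the one against anagen was lost without both February libraries (-0.84, adjusted p = 0.0542). HSPB1 was higher than HSPA8 in the 3 high telogen libraries, at 1.597 to 2.26 times, and below it in the other 9, at 0.52 to 0.99 times. HSPB1 was the only chaperone with anagen wholly below telogen, as 23.2% of the genes tested were.

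Markers of several other cell types also differed between telogen and catagen, where 24.5% of all genes rose and 19% fell, so counts over these short lists lie on a high background. Of 3 measured markers of the suprabasal epidermis, where HSPB1 is abundant, 1 rose in telogen against catagen, and their summed value was 1364 to 2707 in telogen and 875 to 1798 in catagen. The summed value of 4 Schwann cell markers was 69.8 to 137 in telogen and 52.6 to 62.1 in catagen, with 2 of 4 passing. That of 4 myeloid markers was 40.2 to 73.6 in telogen and 27.9 to 35.0 in catagen, with 3 of 4 passing, and that of 3 T cell markers was 13.3 to 16.0 in telogen and 7.99 to 8.74 in catagen, with 2 of 3 passing. Of 5 melanocyte markers 2 rose, of 4 endothelial markers 1 fell, and none of 5 dermal fibroblast or 4 smooth muscle markers passed. Hair shaft and inner root sheath markers went the other way, with 3 of 3 and 3 of 4 lower in telogen. So did KRT5 and KRT14, keratins of the outer root sheath and of basal keratinocytes, of which 1 of 2 passed. Their summed value was 6176 to 8590 in telogen and 9447 to 14320 in catagen, with no overlap. No marker of these lists was at 0 in every library. Their part in the HSPB1, HSPA5 and HSPD1 results was not tested. Among the other small heat shock proteins, 8 of 9 could be tested, and 4 rose and 1 fell, also without the March male. HSPB3, a muscle-associated member in other mammals, rose by 0.96, HSPB11, a part of the machinery of cilia, by 0.50 and HSPB6 by 1.07, from low values, and HSPB8, a partner of BAG3 in autophagy, fell by 0.75. CRYAB, a lens and muscle chaperone, had a change of 0.19 (adjusted p = 0.603).

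**Figure D3:**
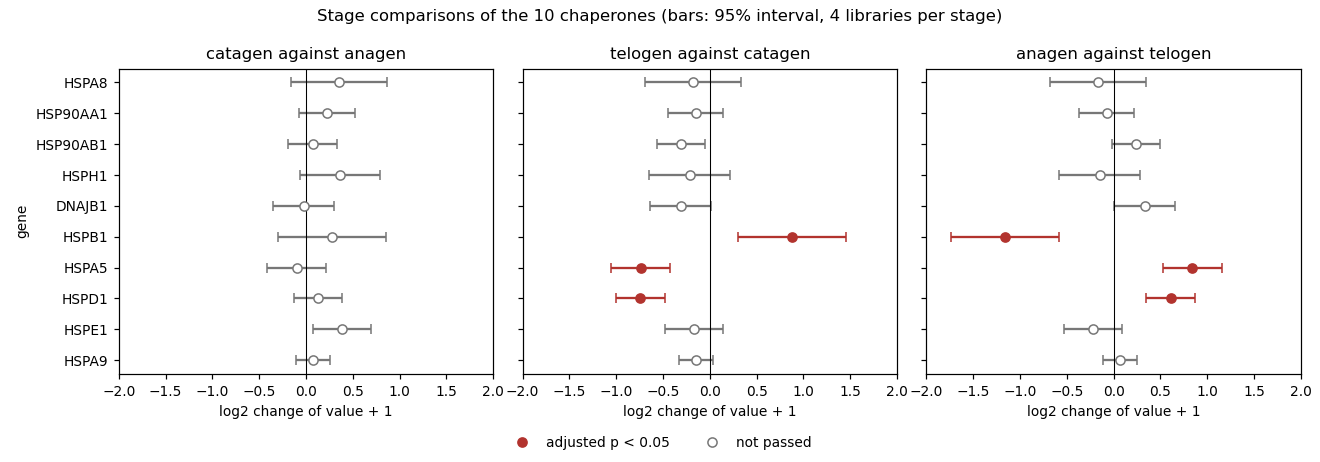
Change of each chaperone on the scale of log2(value + 1) in the 3 stage comparisons, with 95% intervals from limma (4 libraries per stage) and filled points for adjusted p < 0.05. Only HSPB1, HSPA5 and HSPD1 are filled, in both comparisons with telogen, and none is filled in catagen against anagen.

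HSPA8 and HSPH1, parts of the HSP70 machine of the cytosol, had the smallest shares of variance between stages among the 10 members. HSPA8 had 633, 409, 672 and 968 in anagen, 665, 715, 1083 and 868 in catagen and 686, 755, 619 and 839 in telogen. The stages overlapped fully, and the September male, the December female, the December male and the March male were the 4 highest libraries. HSPH1, the nucleotide exchange factor of HSPA8, had 33.5, 22.9, 29.6 and 48.2 in anagen, 35.1, 33.8, 56.8 and 45.99 in catagen and 38.4, 35.5, 36.2 and 34.1 in telogen. It was lowest in the May male and highest in the December female, as HSPA8 was. Its ratio to HSPA8 ran from 0.041 to 0.059 over all 12 libraries. In telogen the March male had the highest HSPA8 and the lowest HSPH1. The changes in telogen against catagen were -0.18 for HSPA8 (95% interval -0.70 to 0.33, adjusted p = 0.554) and -0.21 for HSPH1 (95% interval -0.65 to 0.22, adjusted p = 0.403).

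Of the variance of HSPA8 on the log2 scale, 17.3% lay between stages, 47.8% between the months of a stage and 34.9% between the 2 libraries of a month. The shares for HSPH1 were 22.3%, 41.9% and 35.9%. In HSPD1 82.4% lay between stages, in HSPA5 81.2% and in HSPB1 64.97%. The gene nearest to HSPA8 in its pattern over the 12 libraries was HSPH1, by a root mean square distance of 0.148 on the centred log2 scale, set against a spread of 0.344 in HSPA8 itself. The nearest to HSPH1 were CHORDC1 (0.109), an HSP90 co-chaperone, HSPA8 and DNAJA1 (0.159), a J-domain partner of HSPA8. CHORDC1 had 28.5, 22.4, 28.1 and 41.6 in anagen, 31.8, 33.5, 51.6 and 46.7 in catagen and 39.8, 38.5, 39.2 and 33.7 in telogen. Its lowest library was again the May male and its highest the December female. Other members had other neighbours. All neighbours named here were picked among tested genes without a LOC name, so a gene with such a name may lie nearer. HSPD1 was nearest to AHSA1 (0.086), an activator of HSP90, HSPA5 to BDH1 (0.0861), a ketone body enzyme of mitochondria, and TRAP1 (0.0898), the mitochondrial HSP90, and HSPE1 to NDUFV2 (0.0693), a subunit of respiratory complex I. HSPD1 and HSPA5 lay 0.146 apart, so they were not each other's nearest. Among 16094 genes, those with LOC names included, HSPA5 had rank 57 in nearness to HSPD1, and HSPD1 had rank 113 in nearness to HSPA5. HSPE1 lay 0.397 from HSPD1, at rank 6134. For HSPB1 the nearest, HOXA4, was 0.179 away. DNAJA1 had its lowest value in the May male (78.7) and its highest in the December libraries (139 in each).

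**Figure D4:**
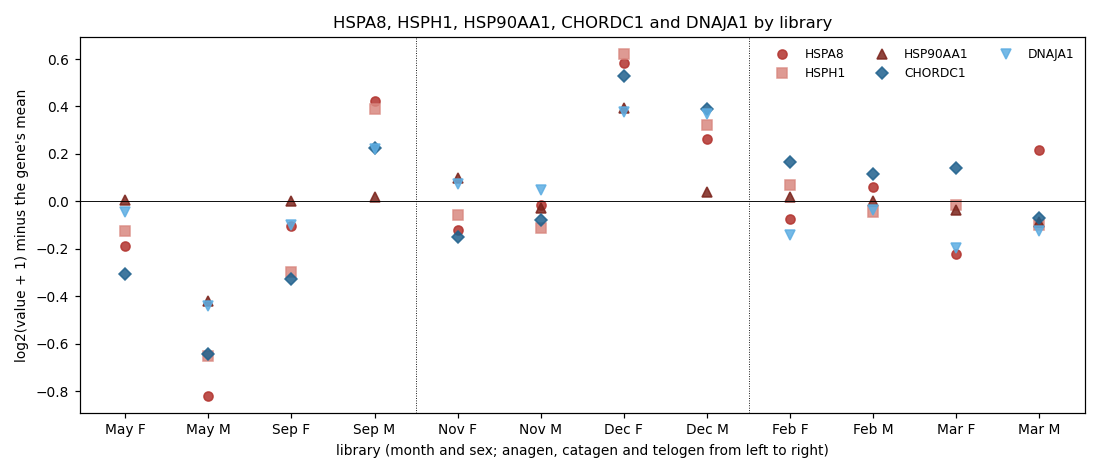
Level of 3 cytosolic chaperones and the genes CHORDC1 and DNAJA1 in each library, as log2(value + 1) minus the mean of the gene over the 12 libraries, with dotted lines between anagen, catagen and telogen. All 5 genes are lowest in the May male, and both December libraries are above the mean.

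Both forms of cytosolic HSP90 missed the threshold in every stage comparison. HSP90AA1, the inducible form, had 503, 374, 501 and 507 in anagen, 536, 491, 657 and 514 in catagen and 507, 501, 488 and 471 in telogen. Apart from a low May male and a high December female, every library lay between 471 and 536. HSP90AB1, the constitutive form, had 379, 331, 334 and 334 in anagen, 389.9, 298, 395 and 371 in catagen and 274, 303, 268 and 323 in telogen. Its change in telogen against catagen was -0.31 (95% interval -0.57 to -0.05, adjusted p = 0.051), which missed the threshold, and it passed without the November male (-0.40, adjusted p = 0.0199) or without the March male (-0.36, adjusted p = 0.0316). All 4 anagen libraries exceeded all 4 telogen libraries, an order with anagen higher that 20.1% of all genes showed, but the change of 0.24 did not pass (adjusted p = 0.108). HSP90AA1 had a change of -0.15 in telogen against catagen (95% interval -0.45 to 0.14, adjusted p = 0.387). The ratio of HSP90AA1 to HSP90AB1 was 1.129 to 1.52 in anagen, 1.37 to 1.67 in catagen and 1.46 to 1.85 in telogen, so the stages overlapped.

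DNAJB1, the J-domain partner of HSPA8, had 139.9, 111, 136 and 154 in anagen, 146, 111, 143 and 129.9 in catagen and 109.8, 109.8, 80.6 and 131 in telogen. The February libraries and the March female were below every library of the other stages, and the March male was not. The change of -0.31 in telogen against catagen did not pass (95% interval -0.63 to 0.02, adjusted p = 0.111), nor did 0.33 in anagen against telogen (adjusted p = 0.0768). Without the March male they were -0.41 (adjusted p = 0.0392) and 0.43 (adjusted p = 0.0265), and the second also passed without the May male (0.43, adjusted p = 0.038).

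Other parts of the cytosolic folding machinery fell in telogen against catagen. All 8 subunits of TRiC, the ring-shaped chaperonin that folds actin and tubulin, fell (median change -0.52), among them TCP1 by 0.29, CCT7 by 0.53, CCT3 by 0.73 and CCT6A by 0.51. All 6 subunits of prefoldin, which delivers unfinished chains to TRiC, fell (median -0.75), with PFDN5 at -1.31, PFDN6 at -0.61, PFDN1 at -0.96 and PFDN4 at -0.88. Both counts were the same without the March male, and with quantile normalization or equal totals 6 of 8 TRiC subunits fell. Of 25 co-chaperones, 12 fell and 4 rose (median -0.27), also without the March male. FKBP4, an immunophilin of HSP90, fell by 0.46, STIP1, which links HSPA8 to HSP90, by 0.55 and DNAJA2, a J-domain protein, by 0.27, whereas TTC4 rose by 0.93. BAG3, a nucleotide exchange factor that works with HSPB8, is one of the others that rose, by 0.55. Of 9 further HSP70 and HSP110 genes 3 fell and 0 rose, namely HSPA2 by 0.75, HSPA14 by 0.87 and HSPA4 by 0.42. Without the March male 4 fell. HSPA1A of this list and BAG1 of the co-chaperones were not matched to a gene in the files, so they were not tested. Falls made up 19% and rises 24.5% of the genes tested. The same telogen libraries held a smaller share of ribosomal protein transcripts, at 12.5% to 17.6%, against 20.6% to 24.8% in catagen, and the part of this in the lists was not tested.

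**Figure D5:**
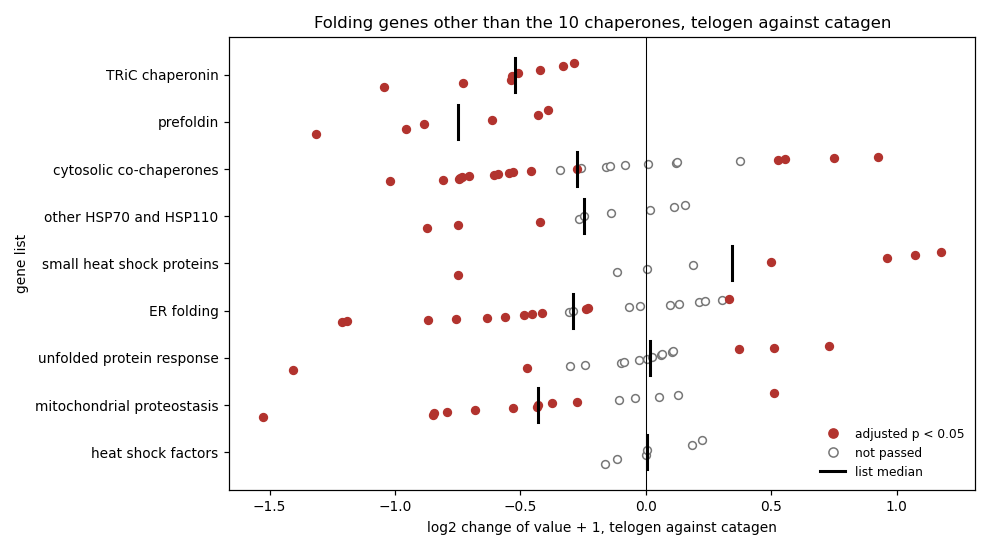
Change in telogen against catagen on the scale of log2(value + 1) for genes of 9 lists of folding genes other than the 10 chaperones, 1 point per gene, filled for adjusted p < 0.05 and with a bar at the list median. All points of TRiC and prefoldin lie below 0 and are filled, and no heat shock factor is filled.

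The transcription factors of the heat shock response did not pass in this comparison. None of 6 did, and HSF1, the main factor, had a change of 0.00 (SE 0.126, adjusted p = 0.993), while 0 of 6 also passed under the 3 other scalings and without the March male. Immediate early genes, which respond to handling of tissue within minutes, had 4 of 17 higher and 4 lower in telogen, near the shares of all genes, 24.5% and 19%. EGR1 rose by 0.97, and JUN, JUND and KLF4 fell by 0.71, 0.66 and 0.37. With equal library totals 6 were higher and 3 lower, and without the March male 7 were higher and 4 lower.

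Anagen against telogen uses the same telogen libraries, and the background was 23.7% of genes above and 29.2% below their telogen level. In anagen 5 of 8 TRiC subunits and 5 of 6 prefoldin subunits were higher, and none was lower. Of 25 co-chaperones 10 were higher and 6 lower, of 15 mitochondrial genes 8 and 2, and of 8 small heat shock proteins 1 and 5. Of 21 genes of the endoplasmic reticulum 11 were higher in anagen and 6 lower, and among the lower ones were HSP90B1 (-0.46), the lectin chaperone CANX (-0.56) and the disulfide isomerase PDIA3 (-0.41), opposite to HSPA5. Of 16 unfolded protein response genes 5 were higher and 2 lower, but 3 and 2 with equal library totals and 2 and 2 when mitochondrial genome and ribosomal protein genes were left out of the totals. Of the 9 further HSP70 and HSP110 genes 3 were higher and 0 lower, and of the 17 immediate early genes 5 and 5, so 7 of 16 unfolded protein response genes and 10 of 17 immediate early genes passed, beside 52.9% of all genes. No count of these lists moved by more than 1 without the March male. HSF2 (-0.47) was the only heat shock factor that passed. In catagen against anagen 0 genes of these lists passed.

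Catagen against anagen gave no chaperone that passed, where 0.0559% of all genes did. At an unadjusted p < 0.05 there were 2519 genes, 1 of the 10 chaperones among them. That was HSPE1, with a change of 0.39 (95% interval 0.08 to 0.70, adjusted p = 0.268), and its means were 221 ± 14.2 in catagen and 171.5 ± 36.6 in anagen (SD, n = 4). The 95% intervals of the other 9 all held 0 and reached as far as 0.86, in HSPB1 and HSPA8. The groups of no member were free of overlap, an order shown by 3.4% of genes with catagen higher and 3.63% with catagen lower. Between the sexes no chaperone passed, where 0.0559% of genes did, 0.0435% higher and 0.0124% lower in males, and 1185 genes had an unadjusted p < 0.05. HSPB1 was the 1 chaperone among those, at 0.0372, with a change of -0.42 in males against females (adjusted p = 0.66). No chaperone passed the test of whether stage differences depend on sex, in which 0.00621% of genes passed and of the 1494 genes with an unadjusted p < 0.05 none was a chaperone.

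Taken by month, the means put 7 of the chaperones highest in December and none highest in May. The share of all genes with such an order was not computed, so the count cannot be read as particular to chaperones. Each month mean rests on 2 libraries. In HSPA8, HSPH1 and HSP90AA1 the highest library was the December female, at 1083, 56.8 and 657. HSPA8 had a month mean of 976 in December and 521 in May, HSPH1 51.4 and 28.2, HSPE1 232 and 145.5, and HSP90AA1 586 and 438. The highest and lowest month means were 1.17 times apart for HSPA9 and 3.04 times for HSPB1. In the F test over the 6 months 32.7% of all genes passed and so did 3 chaperones, HSPD1 (adjusted p = 0.0106), HSPA5 (0.0198) and HSPB1 (0.0447). HSPB1 passed in only 2 of the 12 fits that left out 1 library, those without a March library. HSPA5 did not pass without the May female, the February female or the February male. HSPA8, with the second largest span of months among cytosolic members, had an adjusted p of 0.181.

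February against December, the step into telogen, uses 4 of the 8 libraries of telogen against catagen, so it is not independent of that comparison. HSPD1 changed by -0.95 (SE 0.159, adjusted p = 0.0168), HSPA5 by -0.92 (SE 0.214, adjusted p = 0.0264) and HSPB1 by 1.30 (SE 0.366, adjusted p = 0.0404), where 16.6% of genes passed, 7.69% lower and 8.9% higher. These calls did not outlast the loss of either December library or of the February male, without which no chaperone passed, and without the February female only HSPD1 did. The call of HSPB1 was lost in each of the 10 fits that left out a library of another month than March. In May against March, the step back to growth, HSPA5 was the only one that passed (0.68, SE 0.214, adjusted p = 0.0401), and none passed with equal totals without mitochondrial genome and ribosomal protein genes. With the replicate number, which marks the sex, as a block in the fit, HSPA5 no longer passed. The 1 chaperone that then passed was lower in May. In this comparison 27.4% of genes passed, 13.9% higher and 13.4% lower in May. Without the March male 4 chaperones passed, HSPA5 (1.02), HSPD1 (0.54), DNAJB1 (0.62) and HSPB1 (-1.59), and the call of HSPA5 also held without either November library but in no other fit that left out 1 library, with a change of 0.35 (adjusted p = 0.216) without the March female. In September against May no chaperone passed, where 0.137% of genes did, 0.0311% higher and 0.106% lower in September, and 1572 genes had an unadjusted p < 0.05, HSPA8 and HSPE1 the 2 chaperones among them. HSPA8 had a change of 0.66 (95% interval 0.05 to 1.27, adjusted p = 0.48) and HSPE1 of 0.44 (95% interval 0.05 to 0.83, adjusted p = 0.472).

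By site, the summed value of the 6 cytosolic chaperones was 1654 to 2548 in anagen, 2268 to 3021 in catagen and 2363 to 3164 in telogen, ranges that overlapped. That of the 3 mitochondrial ones was 274 to 391 in anagen, 359.9 to 425 in catagen and 302 to 359.7 in telogen. Telogen thus lay just below catagen in the mitochondrial total but overlapped anagen. The total of the endoplasmic reticulum is HSPA5 alone, at 242 to 278 in anagen, 207 to 267 in catagen and 126 to 200.2 in telogen. It was the only site total without overlap between telogen and both other stages. As a single gene, HSPD1 of the mitochondrion showed the same order. Of all genes tested, 15.9% had telogen wholly below catagen and 20.1% had telogen wholly below anagen.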

How the data were processed

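RNA from secondary hair follicles was extracted with RNAiso Plus and sequenced, per the labels' protocols. The submitters' processing notes name kallisto 0.46.1 and sleuth 0.30.0, tools for quantifying transcripts and for testing them. The genome build and any filters are not given in the sources used here. The authors deposited 1 signal value per gene and library under a heading of TPM, rescaled between libraries by steps that are not given, so read depth and its precision are unknown. Reads shared by near-identical copies, such as processed copies of HSPA8 or the HSP90 pair, may have been divided between them.

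Files were joined by gene ID, and members were found by symbol. The 16095 of 20326 genes that reached 1 in 2 or more libraries were kept, as log2(value + 1), which shrinks changes of low genes. All 12 libraries entered limma fits (version 3.58.1, R 4.3.3, moderated with a trend on the mean), by stage or by month, and the sexes were set against each other within months. P-values were adjusted over all genes by the Benjamini-Hochberg method. They set differences of group means against the spread between these libraries, each taken as an independent sample. No 2 libraries shared more than 1.55% equal values. The fit was tested on simulated data drawn independently for each library, which cannot show how effects of month, sex or animal bear on the calls. The members and all gene lists were chosen with earlier results of these data known. All 10 members are named. List examples are the passing genes with the highest means, and patterns were compared by root mean square distance. Genes with a LOC name were left out when nearest genes were picked, but not from the ranks. BAG3, HSP90B1 and CRYAB were named after their values were seen, as were genes that moved against their list. Alternatives were 0.1 as the added constant, no filter, quantile normalization, equal totals with all genes or without mitochondrial genome and ribosomal protein genes, a block for the replicate number, the mean of each month, and leaving out libraries. Counts of the lists under other scalings or without the March male were added after seeing the data. Gene IDs were found in RefSeq assembly ARS1.2 for 20294 genes and all 10 members.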

Additional observations from a re-analysis of the deposited data

Results flagged for a closer look

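The highest or lowest library of a group was compared with the rest of that group in 120 groups, each of the 4 libraries of a stage or the 6 of a sex, and 12 stood apart. Chance gives about 1 in 20 for independent groups of like libraries. These groups share libraries and values, and those of a sex mix the stages. The 12 therefore cannot be set against that share.

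The December female stood above the other 5 females in HSPA8 (1083 against 619 to 686), HSPH1 (56.8 against 29.6 to 38.4) and HSP90AA1 (657 against 488 to 536). It also had the lowest share of ribosomal protein transcripts in catagen (20.6% against 24.4% to 24.8%). The May male had the lowest HSP90AA1, 374 against 501 to 507 in the rest of anagen and against 471 to 514 in the other males, and the highest ratio of HSPA5 to HSPA8 among males (0.59 against 0.188 to 0.291).

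The May female had the highest HSP90AB1 in anagen (379 against 331 to 334). The November male had the lowest HSPD1 in catagen (59.95 against 79.7 to 81.1) and the lowest ratio of HSPH1 to HSPA8 there (0.0473 against 0.0524 to 0.053). The February male stood above the other males in HSPB1 (1205 against 407 to 619) and in the share of mitochondrial genome transcripts (10.7% against 1.56% to 4.63%).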

How the results depend on the processing

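The calls of HSPA5 and HSPD1 in both comparisons with telogen held in 22 of 22 alternatives, and those of HSPB1 in 19 and 21 of 22. Without both February libraries 3074 genes passed in telogen against catagen and 5285 in anagen against telogen, and without both May libraries 4 passed in catagen against anagen, with fewer libraries in each fit. An added constant of 0.1 gave 12 genes in September against May. In May against March 2 chaperones passed with quantile normalization and 0 with equal totals without mitochondrial genome and ribosomal protein genes. The interaction of sex and stage gave 4 genes with no filter, 5 with equal totals and 2 with equal totals without those genes, against 1. Equal totals moved the median change of all genes in September against May to -0.165. The cause of these shifts was not tested.

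Leaving out 1 library at a time gave 3 to 13 genes in catagen against anagen, 5257 to 7545 in telogen against catagen, 7337 to 8668 in anagen against telogen, 8 to 33 in September against May, 19 to 4468 in February against December, 225 to 5977 in May against March, 2344 to 7221 in the F test and 0 to 4 in the interaction. Chaperones that passed numbered 2 to 5 in telogen against catagen, 3 to 4 in anagen against telogen, 0 to 3 in February against December, 0 to 4 in May against March and 1 to 3 in the F test.

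No reversed direction was of a member that passed. In catagen against anagen DNAJB1 ran from -0.1166 to 0.0569 over libraries left out and was 0.0221 with equal totals without mitochondrial genome and ribosomal protein genes, and HSPA9 was -0.0074 without both May libraries. In anagen against telogen HSPA9 was -0.0166 with those equal totals, HSPA8, HSP90AA1 and HSPH1 were 0.16, 0.036 and 0.0673 without both May libraries, and their ranges over libraries left out were -0.366 to 0.0472, -0.1116 to 0.035 and -0.336 to 0.0108.

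Replicate numbers mark the sex, and whether they also pair the samples could not be settled. Deviations of libraries with the same number correlated at -0.154 to 0.241 across stages (median 0.0505), over 0.1 in 8 of 24 pairs. With different numbers they correlated at -0.296 to 0.327 (median -0.0284), over 0.1 in 4 of 24 pairs. Of 12 libraries 9 correlated best with their own number. With the replicate number as a block 7074 genes and 3 chaperones passed in telogen against catagen, 8624 and 3 in anagen against telogen, 9 and 0 in catagen against anagen, 21 and 0 in September against May, 2546 and 3 in February against December, 4408 and 1 (lower in May, so that HSPA5 no longer passed) in May against March, and 5123 and 3 in the F test. Depth is unknown, so no limit from it could be set, and with 2 libraries per month most month results rest on single libraries.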
